A study of Homo sapiens with 12 samples.

Results

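The mRNAs of the receptors for insulin and the insulin-like growth factors (INSR, IGF1R and IGF2R) and of the proteins that dock on or inhibit them (IRS1, IRS2, SHC1, GRB10 and GRB14) were followed in HepG2, a human hepatocellular carcinoma line. These 8 genes, chosen by name with earlier results of these data known, are 8 of the 26364 genes in the count table. All 8 were among the 13852 genes that passed the filter on low counts. RNA-seq libraries were made at 0, 5, 10, 30 and 240 min after insulin, with 2 replicates per time, and the peaks of 1 insulin receptor (IR) ChIP-seq library were searched at the same genes. All cells were grown in EMEM with 10% FBS and the labels name no genetic change. The treatment text of every RNA-seq library, the 0 min libraries included, reads as 16 h in EMEM and then BSA with 3 nM insulin for 5 min, whereas the titles give the times used here. The ChIP libraries carry a text of culture with insulin and BSA for 2 days, a washout and 3 nM insulin. Each kind of library also carries the extraction text that fits the other kind, so the labels do not settle which culture text belongs to the RNA-seq. The paper's methods describe HepG2 cells kept for 2 days in EMEM alone and then for 2 days with a physiologic or a pathologic level of insulin. A washout and the acute stimulation followed. The RNA-seq part of the methods does not name the culture used.

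Insulin bound to INSR switches on the receptor's tyrosine kinase, which phosphorylates docking proteins of the IRS family and SHC1. IRS proteins pass the signal to PI3K and AKT, which control glucose and lipid metabolism in hepatocytes, and SHC1 passes it through GRB2 and SOS to RAS and ERK. IGF1R is the close relative of INSR that binds IGF1, and IGF2R is an unrelated receptor without a kinase that takes up IGF2 and carries lysosomal enzymes. GRB10 and GRB14 bind the active receptors and inhibit their kinase.

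Libraries held 18347109 to 45005769 reads counted on genes, and a further 1.59% to 2.36% of the counts fell on ERCC spike-ins. Levels are given in CPM (library-size-scaled counts with TMM factors) for 1 gene over time, and as TPM, which is also scaled by transcript length, between genes. A gene was counted as changed at a Benjamini-Hochberg adjusted p under 0.05 over all genes tested with edgeR's quasi-likelihood test. The markers of hepatocytes were high in every library, with ALB at 15796 to 22258 TPM. Of the markers of other cells PTPRC had 0 counts in every library, DCN had at most 1, CFTR 2, KRT7 8 and CDH5 10. Others were detected, with 5 to 24 counts of CD14, 9 to 47 of VWF, 18 to 57 of COL1A1, 41 to 114 of PECAM1 and 162 to 611 of PDGFRB (3.79 to 5.94 TPM), and CD68 (48.7 to 60.3 TPM) and SOX9 (236 to 314 TPM) were clearly expressed. In these bulk libraries less RNA per cell and fewer cells that express a gene cannot be told apart. The labels do not say whether replicates came from separate cultures, so p-values measure the spread between these libraries, and the chi-square per degree of freedom between replicates was 2.8 to 6.3, above sampling noise.

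The levels per length spanned a wide range and kept 1 order at each of the 5 times. IGF2R was highest, at 293 ± 8.47 TPM (SD, n = 2) at 0 min, followed by SHC1 at 75.3 ± 5.41, INSR at 57.2 ± 3.96 and IGF1R at 45.6 ± 2.84. IRS1 stood at 22.1 ± 0.921 TPM, GRB10 at 13.6 ± 1.24, GRB14 at 7.63 ± 0.701 and IRS2 at 0.622 ± 0.0846 (SD, n = 2 each). IRS1 was thus the main IRS mRNA of the pair in these cells, with 36.0 ± 6.37 (SD, n = 2) times the TPM of IRS2 at 0 min. At no time did the replicates of neighbours in this order overlap, and over all 10 libraries only INSR (37.3 to 61.8 TPM) and IGF1R (30.8 to 48.6 TPM) did. Against the median of 20.6 TPM over all genes tested, the mean of IGF2R over the 10 libraries was above that of 96.7% of the genes, that of INSR above 75.5%, that of IRS1 above 51.2% and that of IRS2 above 5.88%. IRS2 rested on 17 to 71 counts per library, while IGF2R had at least 17829.

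**Figure D1:**
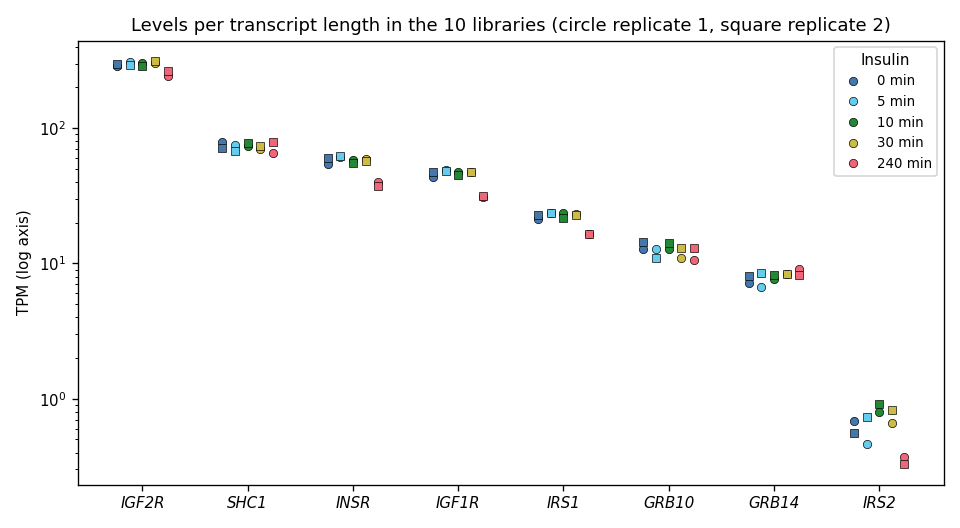
Level of the 8 mRNAs in TPM (vertical log axis) in each of the 10 libraries, coloured by time after insulin, with circles for replicate 1 and squares for replicate 2. IGF2R lies highest, between 242 and 314 TPM, and IRS2 lowest, between 0.327 and 0.908 TPM.

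The time course asks which mRNAs differ between the times after insulin. No library was kept for 240 min without insulin, so insulin and time in culture cannot be told apart. At 240 min 5 of the 8 genes were lower than at 0 min, namely INSR, IGF1R, IGF2R, IRS1 and IRS2, and 0 were higher. This is to be read against 41% of all genes tested that passed, 20.4% as lower and 20.6% as higher. With ERCC scaling 3 of the 8 passed, INSR, IGF1R and IRS1, and of all genes 331 were higher and 728 lower. The median log2 fold change of the 8 was -0.36, and that of all genes tested -0.0026. Before adjustment 7 of the 8 had a p under 0.05. Against 30 min, a comparison that shares the 240 min libraries but not those at 0 min, the same 5 genes passed as lower, where 38.2% of all genes passed, 18.4% as lower and 19.8% as higher, and with ERCC scaling IRS1 and IGF2R were lost. The test over all 5 times together also called these 5 genes and 38.3% of all genes. For each of the 5, both 240 min libraries lay below all 8 earlier libraries, as they did for 21.3% of the genes tested.

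**Figure D2:**
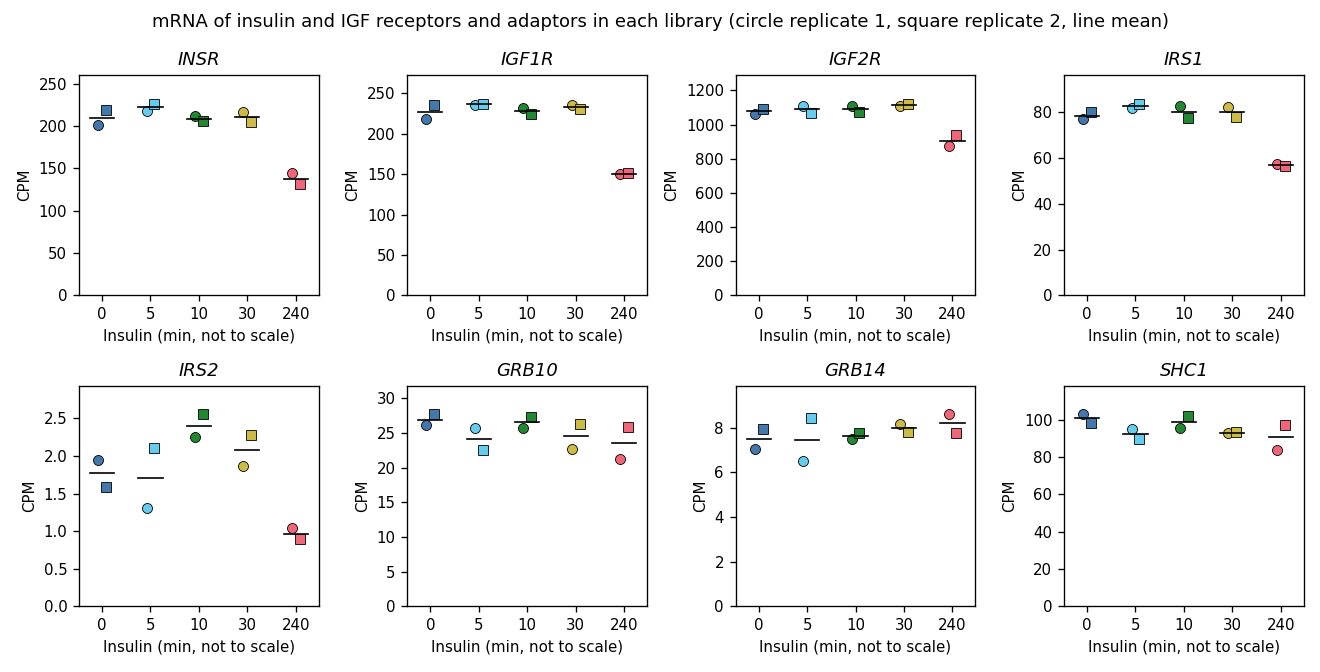
CPM of each of the 8 mRNAs (vertical axis from 0) at the 5 times after insulin, with circles for replicate 1, squares for replicate 2 and a line at the mean. INSR, IGF1R, IGF2R, IRS1 and IRS2 lie lower at 240 min than in all 8 earlier libraries, whereas GRB10, GRB14 and SHC1 at 240 min overlap the earlier libraries.

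INSR (chromosome 19, 7112266 to 7294011 in hg19, minus strand) stood at 201 and 219 CPM (0 min), 218 and 227 (5 min), 212 and 206 (10 min), 217 and 205 (30 min), and 144 and 132 (240 min). The 8 libraries up to 30 min formed 1 range, and both 240 min libraries lay under it. The mean went from 209.8 ± 12.7 CPM to 138 ± 8.88 (SD, n = 2), with log2 fold change -0.61 ± 0.056 (SE, adjusted p = 8.32e-08, edgeR). Of all genes tested 4.48% had a lower log2 fold change at 240 min.

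IGF1R (chromosome 15, 99191768 to 99507759, plus strand) moved with nearly the same size as its relative. It stood at 218 and 235 CPM (0 min), 236 and 237 (5 min), 231 and 224 (10 min), 235 and 229.9 (30 min), and 149.8 and 151 (240 min). The replicates were close together and the 240 min pair stood clearly apart, with log2 fold change -0.59 ± 0.049 against 0 min (SE, adjusted p = 2.44e-08, edgeR). INSR and IGF1R shared no stretch of 50 bases in their longest coding transcripts, so reads of this length with no mismatch could not be exchanged between them.

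IGF2R (chromosome 6, 160390131 to 160527583, plus strand) had a smaller log2 fold change than the kinase receptors, a difference that was not tested. Its libraries held 1063 and 1093 CPM (0 min), 1111 and 1068 (5 min), 1109.8 and 1073 (10 min), 1112 and 1123 (30 min), and 876 and 937 (240 min). The last pair lay below the other 8 libraries, with log2 fold change -0.25 ± 0.051 (SE, adjusted p = 0.000621, edgeR). Scaled by the ERCC spike-ins, under which the median gene moved by -0.12 on the log2 scale, IGF2R no longer passed (log2 fold change -0.37, adjusted p = 0.254, edgeR), whereas INSR, IGF1R and IRS1 did.

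Because TPM ratios within a library do not depend on the scaling between libraries, the receptors were also set against each other. The ratio of INSR to IGF1R was 1.25 ± 0.00869 (SD, n = 2) at 0 min, 1.27 ± 0.0292 at 5 min, 1.24 ± 0.00325 at 10 min, 1.22 ± 0.0302 at 30 min and 1.24 ± 0.0885 at 240 min. Over the 10 libraries it ran from 1.17 to 1.30, and both ends of that range were the 240 min libraries, which thus spanned the other 8. The ratio of INSR to IGF2R went from 0.195 ± 0.00787 (SD, n = 2) at 0 min to 0.153 ± 0.0173 at 240 min, and that of IGF1R to IGF2R from 0.156 ± 0.00520 to 0.123 ± 0.00515. The 240 min libraries were the lowest of the 10 in both of these ratios. The ratios are given as values and were not tested.

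**Figure D3:**
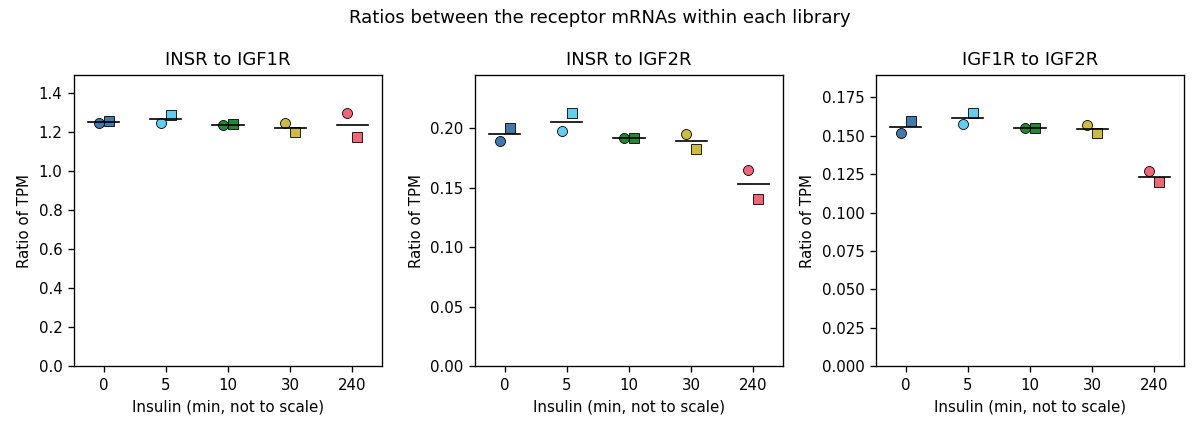
Ratios of TPM between the receptor mRNAs within each library (vertical axis from 0) by time after insulin, with circles for replicate 1, squares for replicate 2 and a line at the mean. INSR to IGF1R stays between 1.17 and 1.30, while both ratios to IGF2R are lowest in the 240 min libraries.

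The mRNAs of both IRS genes among the 8 were lower at 240 min. IRS1 (chromosome 2, 227596033 to 227663506, minus strand), the adaptor that recruits PI3K, stood at 76.9 and 80.2 CPM (0 min), 81.9 and 83.8 (5 min), 82.7 and 77.5 (10 min), 82.2 and 78.1 (30 min), and 57.3 and 56.6 (240 min). The 240 min libraries agreed closely and lay below the other 8, with log2 fold change -0.47 ± 0.054 (SE, adjusted p = 1.41e-06, edgeR). IRS2 (chromosome 13, 110406184 to 110438914, minus strand), the IRS protein known as a target of the insulin-inhibited FOXO factors in liver, stood at 1.95 and 1.59 CPM (0 min), 1.31 and 2.11 (5 min), 2.26 and 2.55 (10 min), 1.87 and 2.28 (30 min), and 1.04 and 0.894 (240 min). The 2 libraries of 240 min, with 26 and 17 counts, were the lowest of the 10 and those of 10 min were above both 0 min libraries.

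The log2 fold change of IRS2 was -0.82 at 240 min against 0 min (standard error 0.28, adjusted p = 0.0239, edgeR) and -1.07 against 30 min (standard error 0.28, adjusted p = 0.00521, edgeR). The first call was lost with DESeq2 (adjusted p = 0.0762), without 0 min replicate 1 (0.0936, edgeR), without 240 min replicate 1 (0.0736, edgeR) and without 240 min replicate 2 (0.107, edgeR), and the second passed with each library left out. At 10 min its log2 fold change of 0.47 had an unadjusted p of 0.0493 in edgeR and an adjusted p of 0.951. The TPM ratio of IRS1 to IRS2 was 36.0 ± 6.37 (SD, n = 2) at 0 min, 41.5 ± 13.1 at 5 min and 26.7 ± 4.08 at 10 min. It was 31.4 ± 5.50 at 30 min and 47.5 ± 4.57 at 240 min, with a range of 23.9 to 50.8 over the 10 libraries. The highest value belonged to 5 min replicate 1, so the 240 min libraries did not stand apart.

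The inhibitory adaptors and SHC1 did not pass at any time. GRB10 (chromosome 7, 50657760 to 50861159, minus strand) stood at 26.1 and 27.7 CPM at 0 min and at 21.2 and 25.9 at 240 min, with 22.5 to 27.3 in the 6 libraries between. Its log2 fold change came to -0.21 ± 0.094 (SE, adjusted p = 0.0867, edgeR), and 1 library decided it, since the value was -0.35 (adjusted p = 0.0129, edgeR) without 240 min replicate 2 and -0.062 without 240 min replicate 1. GRB14 (chromosome 2, 165348916 to 165478360, minus strand) was at 7.05 and 7.95 CPM at 0 min and at 8.59 and 7.78 at 240 min, groups that overlap, with 6.49 to 8.42 in the 6 libraries between, with log2 fold change 0.12 ± 0.13 (SE, adjusted p = 0.493, edgeR).

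SHC1 (chromosome 1, 154934774 to 154946959, minus strand), the adaptor towards RAS, was at 103 and 98.4 CPM at 0 min and at 83.8 and 97.2 at 240 min, with 89.5 to 102 in the 6 libraries between, with log2 fold change -0.15 ± 0.062 (SE, adjusted p = 0.0534, edgeR). Here too the replicates of 240 min decided the value, which was -0.26 (adjusted p = 0.00385, edgeR) without replicate 2 and -0.049 without replicate 1. Of the 3432 windows of 50 bases in the longest coding transcript of SHC1, 622 (18.1%) also occur in other annotated genes, among them the overlapping PYGO2 and the pseudogene SHC1P2, so the counts of SHC1 are uncertain. In IRS2 this share was 2.52%, in IGF2R 0.128% and in the other 5 genes 0%, and no window was shared between the 8 genes. Both GRB10 and SHC1 lay below the 0 min libraries in both 240 min libraries, as did 34.9% of all genes tested. The TPM ratio of GRB10 to GRB14 was 1.78 ± 0.00142 (SD, n = 2) at 0 min and 1.37 ± 0.309 at 240 min, where the spread between replicates was large.

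**Figure D4:**
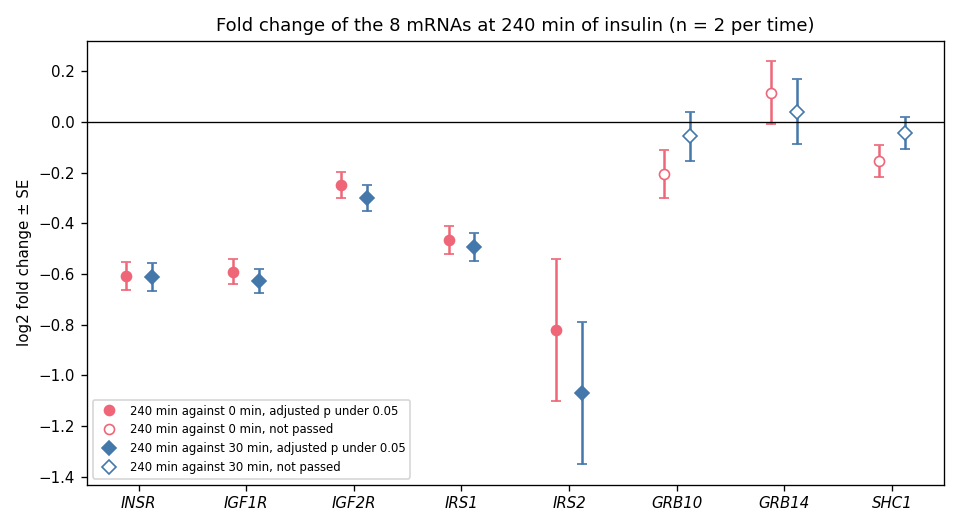
Log2 fold change of the 8 mRNAs at 240 min against 0 min (circles) and against 30 min (diamonds), with bars for the standard error and filled symbols for an adjusted p under 0.05 in edgeR. INSR, IGF1R, IGF2R, IRS1 and IRS2 lie below 0 in both comparisons, and GRB10, GRB14 and SHC1 pass in neither.

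At the early times none of the 8 mRNAs passed. With edgeR 0 of the 8 passed at 5, 10 or 30 min, nor did any with DESeq2 or limma, and the counts at an unadjusted p under 0.05 were 0, 1 and 0. Among all genes tested, 0% passed at 5 min (0 genes with edgeR and 2 with DESeq2, with 1976 at an unadjusted p under 0.05), 0.137% at 10 min (19 genes) and 0.332% at 30 min (46 genes). At 30 min the log2 fold change was 0.0049 for INSR (standard error 0.055), 0.037 for IGF1R (standard error 0.048), 0.052 for IGF2R (standard error 0.051) and 0.029 for IRS1 (standard error 0.052). The other members varied more, and IRS2 ran from 1.31 CPM in a 5 min library to 2.55 CPM in a 10 min library. GRB10 had log2 fold changes of -0.16 at 5 min and -0.15 at 30 min (standard error 0.093 and 0.092), and SHC1 of -0.12 and -0.11 (standard error 0.061 for both).

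By their longest coding transcripts, the genes that fell at 240 min have the 5 longest mRNAs of the 8. The longest coding transcript in the GENCODE annotation holds 14061 bases for IGF2R, 12235 for IGF1R, 9771 for IRS1, 9463 for INSR and 8156 for IRS2, against 5468 for GRB10, 3481 for SHC1 and 2415 for GRB14. By all exons together, the length used for the correction below, GRB10 had 9795 bases and IRS2 8156, so this order did not hold. Of the 1046 tested genes with a transcript of at least 8156 bases, 31% were lower at 240 min and 22.2% higher, against 21% and 21.4% of the 10844 genes with shorter ones. This limit was taken from IRS2, the shortest of the 5 that fell. With each library corrected for smooth trends on exon length and GC content, the log2 fold changes were -0.58 for INSR, -0.55 for IGF1R, -0.18 for IGF2R, -0.45 for IRS1 and -0.77 for IRS2, all with an adjusted p under 0.05 (edgeR), and SHC1 passed as well (-0.16, adjusted p = 0.0350).

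Of a list of 52 other genes that act on the receptors or beside the adaptors, 46 were tested, and at 240 min 12 were higher and 17 lower than at 0 min. The median log2 fold change was 0.0052. With upper-quartile scaling 13 were higher and 13 lower, with ERCC scaling only 1 was higher and 5 lower, and with 1 library left out 9 to 12 were higher and 12 to 18 lower. Against 30 min 10 were higher and 12 lower. At 5, 10 and 30 min 0 passed with edgeR, while 12, 4 and 7 had an unadjusted p under 0.05. The 12 and 17 genes are 26.1% and 37% of those tested, beside 20.6% and 20.4% of all genes. The list was written with earlier results of these data known, and the difference between these shares was not tested.

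Among 19 other docking proteins and adaptors 5 rose and 6 fell. GRB7, the third member of the GRB10 and GRB14 family, went from 56.5 ± 2.57 CPM (SD, n = 2) to 32.6 ± 1.30, with log2 fold change -0.80 ± 0.073 (SE, adjusted p = 7.35e-08, edgeR). SH2B3, which binds phosphorylated receptors and restrains cytokine signals, rose from 18.1 ± 0.403 to 28.8 ± 1.74 CPM (log2 fold change 0.68), while its relative SH2B1, an adaptor that enhances insulin receptor signaling, fell by 0.42. SOS2, an exchange factor for RAS, fell by 0.40 and the docking protein GAB2 by 0.33 on the log2 scale.

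Of 12 phosphatases and inhibitors of the receptors 4 rose and 4 fell. PTPN1, the phosphatase that removes phosphate from INSR, rose from 124 ± 2.88 CPM (SD, n = 2) to 164 ± 0.809 (log2 fold change 0.41 ± 0.048, SE, adjusted p = 1.76e-06, edgeR). TRIB3, a pseudokinase that binds AKT, rose by a log2 fold change of 0.64 and SOCS6 by 0.33. ENPP1, which binds INSR and hinders its activation, fell from 372 ± 26.9 to 258 ± 1.12 CPM (log2 fold change -0.53). Of 5 ubiquitin ligases of the receptors 1 rose and 3 fell, with CBLB at -0.79 and NEDD4, which acts on IGF1R through GRB10, at -0.38. Of 10 genes of receptor processing and trafficking 2 rose and 4 fell, and CEACAM1, a substrate of INSR that promotes insulin clearance in liver, went from 240.3 ± 0.834 to 173 ± 4.50 CPM (log2 fold change -0.47). The 12 genes with the largest log2 fold changes among those that met the limits for naming kept their direction under RLE, upper-quartile and ERCC scaling. Of these 12, only GRB7, CBLB, ENPP1 and CEACAM1 passed with ERCC scaling. MDM2 (log2 fold change 0.32) and FRS2 (0.31), both higher at 240 min, also met the limits but lay outside the 12 largest.

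The genes nearest in pattern to each changed gene were found by the Pearson correlation of log2 CPM over the 10 libraries, a measure set mainly by the step between 240 min and the other times. Nearest to INSR were SLC1A2 (r = 0.995) and ACVR2B (0.994), and among those nearest to IGF1R was KANK1 (0.997). Nearest to IGF2R were DLC1 (0.991) and DYNC1H1 (0.990), to IRS1 DAPK1 (0.998) and CDS2 (0.997), and to IRS2 UEVLD and GPHN (both 0.926). All of the genes named here as nearest were lower at 240 min, with log2 fold changes from -1.65 for SLC1A2 to -0.22 for DYNC1H1 and UEVLD.

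In the ChIP-seq, an antibody to IR pulled down the DNA fixed to it, and this gave 1971 peaks in 1 library, with no replicate and no input used here. A peak lay within 5 kb of the gene body at 4 of the 8 genes, namely INSR, IGF1R, IGF2R and SHC1, so that 3 of 3 receptors and 1 of 5 adaptors had one, against 15.7% of all genes tested in the RNA-seq and 17.4% (8 of 46) of the tested genes of the list. The centres of the 4 peaks all lay within 1 kb of the gene's start, as was found for 12% of all genes tested. The genes with a peak thus include 3 that fell at 240 min and SHC1, which did not pass, while IRS1 and IRS2 fell and had none. No peak was nearer than 673308 bp to IRS1, 755698 bp to GRB14, 925774 bp to IRS2 or 2854313 bp to GRB10.

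**Figure D5:**
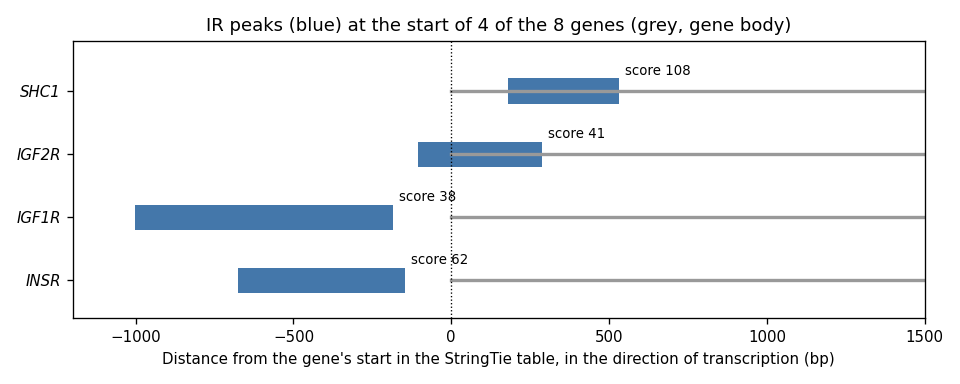
Position of the IR peaks (blue bars) relative to the start of the gene in bp along the direction of transcription (horizontal axis), with the gene body in grey and the score beside each peak. By the starts in the StringTie gene bodies, the peaks at INSR and IGF1R lie before the start, that at IGF2R spans it and that at SHC1 lies behind it. The GENCODE transcript INSR-201 starts further upstream, within the INSR peak.

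The scores of these peaks were low to middling within the list, whose scores run from 13 to 14106 with a median of 79. The peak at SHC1 (chromosome 1, 154946428 to 154946779) had the highest score of the 4, 108, and rank 805. That at INSR (chromosome 19, 7294157 to 7294688) had a score of 62 and rank 1160, that at IGF2R (chromosome 6, 160390026 to 160390419) a score of 41 and rank 1460, and that at IGF1R (chromosome 15, 99190766 to 99191582) a score of 38 and rank 1519. Only the peak of SHC1 thus lay above the median score. Both SHC1 and IGF2R peaks overlap the first exon of GENCODE transcripts, the peak of INSR overlaps the first exon of the GENCODE transcript INSR-201, and that of IGF1R lies outside the exons of IGF1R. HOMER annotated all 4 as promoters, naming the promoter of INSR and that of IGF2R at these genes and those of other genes at SHC1 and IGF1R. In its separate column for the nearest gene it gave CKS1B at SHC1, AIRN at IGF2R, AC125387.1 at INSR and RP11-35O15.1 at IGF1R, so that by this column 0 of the 8 had a peak and by the promoter annotation 2 did.

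The DNA under the receptor peaks was rich in G and C, and the parts outside exons are printed because the peaks at these genes have no replicate and their sequence can be inspected directly. The GC content was 80.2% in the IGF2R peak, 77.3% at INSR, 72.9% at IGF1R and 58.5% at SHC1, against a median of 65.9% over the 1971 peaks. Per 100 bases these peaks, in the same order, held 15.48, 12.97, 11.02 and 6.25 CpG, against a median of 8.36. These values are of whole peaks, and the stretches printed below had a GC content of 77.3%, 76.8%, 62.0% and 56.4% in that order. Each sequence is from the GRCh37 genome (hg19), 5′ to 3′ on the strand of the gene, namely chr19:7294426-7294688 (minus), chr15:99191024-99191323 (plus, the middle 300 bases of the peak), chr6:160390026-160390113 (plus) and chr1:154946428-154946723 (minus, in an intron), and capitals mark matches to the motifs searched.
INSR: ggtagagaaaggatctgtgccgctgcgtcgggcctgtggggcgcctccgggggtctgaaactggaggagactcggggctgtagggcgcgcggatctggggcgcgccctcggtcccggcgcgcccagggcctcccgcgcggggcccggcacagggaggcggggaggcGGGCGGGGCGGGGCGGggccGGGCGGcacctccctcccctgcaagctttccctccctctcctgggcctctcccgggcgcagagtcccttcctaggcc
IGF1R: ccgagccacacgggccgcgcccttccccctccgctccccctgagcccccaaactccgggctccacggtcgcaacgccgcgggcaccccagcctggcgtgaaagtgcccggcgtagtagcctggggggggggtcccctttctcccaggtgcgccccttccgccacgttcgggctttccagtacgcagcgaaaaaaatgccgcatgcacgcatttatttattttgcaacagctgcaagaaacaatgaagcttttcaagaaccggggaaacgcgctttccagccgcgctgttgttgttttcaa
IGF2R: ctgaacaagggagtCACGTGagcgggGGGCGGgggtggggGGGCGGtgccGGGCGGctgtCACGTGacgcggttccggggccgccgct
SHC1: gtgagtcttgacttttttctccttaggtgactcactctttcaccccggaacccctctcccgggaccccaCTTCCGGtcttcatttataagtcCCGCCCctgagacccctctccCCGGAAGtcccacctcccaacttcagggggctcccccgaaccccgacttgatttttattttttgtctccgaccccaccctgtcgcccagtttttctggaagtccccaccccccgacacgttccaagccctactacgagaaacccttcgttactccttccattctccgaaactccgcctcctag

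Of 6 short motifs searched on both strands, the GC box GGGCGG, read by SP and KLF factors, was found 4 times in the INSR window, some of them overlapping, 3 times in that of IGF2R, 1 time in that of SHC1 and 0 times in that of IGF1R. In windows of the same length centred on all 1971 peaks it occurred at least once in 64.3%, 34.7%, 67.0% and 67.4%. The E-box CACGTG stood 2 times in the 88 bases of IGF2R, where 1.62% of the peaks hold it, and the ETS motif CCGGAAG 2 times in SHC1, where 15% of the peaks hold it. ACTACAA (ZNF143 and THAP11), the CRE TGACGTCA and the FOXO motif GTAAACA had 0 matches in the 4 windows. A match describes letters only, and windows were centred on the peak for the list but moved off exons for INSR, IGF2R and SHC1.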

How the data were processed

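The RNA-seq time course in HepG2 (0, 5, 10, 30 and 240 min, 2 replicates each) and 1 IR ChIP-seq library were analysed, and the input was not used here. The authors trimmed single-end reads with Trim Galore 0.6.4, aligned them to hg19 with STAR 2.6.1d and deposited raw counts per gene from featureCounts 1.6.4 with reverse strandedness, and TPM from StringTie. They marked duplicates, and no source used here says that these were removed. For ChIP-seq the authors used BWA 0.7.17-r1188 and MACS2 2.2.7.1 and deposited a peak table with a score for each peak and the distance to the nearest start site, annotated by HOMER. The depth of the ChIP library is unknown from it.

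Counts were tested here with edgeR 4.0.16 (R 4.3.3), with TMM, filterByExpr (minimum count 10, minimum total 15) and quasi-likelihood tests, all 10 libraries in 1 model with time as the only term. The 92 ERCC rows (1.59% to 2.36% of counts) entered only the ERCC scaling alternative. The SE is the size of the log2 fold change over the root of F. On simulated data, where 200 genes among 13737 were changed by a factor of 2 up or down, 88% were recovered at 240 min against 0 min. Of the calls 7.85% were false. Smaller changes, and a larger share of changed genes, were not simulated. Alternatives were DESeq2 1.42.0, limma 3.58.1 on log2(TPM + 1) or log2(TPM + 0.1) (also restricted to genes averaging 1 TPM or more), other filters and scalings, ERCC scaling, the likelihood ratio test, only the times compared, a replicate block and each library left out, and, chosen after seeing the data, correction for GC content and exon length, which were found for 91.6% of tested genes. The list of 52 genes was written by hand. Those named had an adjusted p under 0.05, a log2 fold change of at least 0.3 in size and a mean of at least 5 CPM at 240 min against 0 min, the 12 largest at most. SOCS2 and SOCS3, with a mean under 5 CPM, are given beside these 12, as are MDM2 and FRS2, which met the limits. The members and lists were chosen with earlier results of these data known. Gene bodies for the peak search came from the StringTie tables, and exons from GENCODE on GRCh37. Python 3.11.15 (pandas 2.3.3, matplotlib 3.10.9) served for sequences, peaks and plots. For each changed member the 2 genes nearest in pattern were sought, and 1 result of this search is not reported here.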

Additional observations from a re-analysis of the deposited data

How the results depend on the processing

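At 240 min against 0 min INSR, IGF1R and IRS1 passed in all 22 alternatives set out for them, and no member changed direction while called. The number of members called was 4 to 6 with 1 library left out at 240 min against 0 min, 5 in each such fit against 30 min and 4 to 5 in the test over the 5 times. With ERCC scaling it was 3 at 240 min against 0 min, 3 against 30 min and 2 over the 5 times, and 1059 of all genes were called at 240 min against 0 min, where the other alternatives gave more. IRS2 also lost its call with limma on log2(TPM + 1) (adjusted p = 0.109), on log2(TPM + 0.1) (0.0789) and with ERCC scaling (0.0548), and could not be tested with a mean TPM of at least 1. Against 30 min IRS1 and IGF2R lost theirs with ERCC scaling (adjusted p = 0.108 and 0.469). Without the low-count filter GRB10 passed (adjusted p = 0.0462), as did SHC1 (0.0335), and SHC1 also with RLE scaling (0.0492) and the likelihood ratio test (0.0477). Deviations of same-numbered libraries from their group means correlated at -0.115 to 0.133. These low values do not settle whether the replicate numbers pair the samples. The replicate block gave 5 members and 5845 of all genes at 240 min against 0 min, where the main model gave 5676 genes, and changed no call of a member. Genes with a peak numbered 4 with an extension of 1 kb or 20 kb, 1 with peaks of a score above the median, and 0 by HOMER's nearest gene. Beyond these constructions the causes were not tested. Depth limits IRS2, with at most 71 counts per library, and the ChIP values, from 1 library.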
